A study of Mus musculus with 8 samples.

Results

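The 5 genes described here, Cybb, Cyba, Ncf1, Ncf4 and Rac2, encode subunits of the phagocyte NADPH oxidase and were followed in Cd11b-sorted cells of the mouse mammary gland. They were taken by name, each as the brightest probe set that carried its symbol alone, and they were 5 of 18193 genes that could be followed in this way. All 5 were brighter than the array median on 8 of 8 arrays and so were among the 13041 genes kept by a filter on low signals.

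The phagocyte oxidase moves electrons from NADPH across a membrane to oxygen and releases superoxide into the phagosome or outside the cell. Its catalytic core sits in the membrane, and its regulatory subunits wait in the cytosol until a signal through phosphorylation and a Rac GTPase brings them to the core. Macrophages, monocytes and neutrophils carry it, and its loss in humans causes chronic granulomatous disease.

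The study used female FVB mice, 6 weeks old at the start, in 4 groups of 2 pools, with the RNA of 3 mice on each of 8 arrays. The groups were MMTV-iFGFR1 mice given dimerizer for 48 hours, non-transgenic littermates given it for 48 hours, MMTV-iFGFR1 mice given it for 4 weeks and littermates given it for 4 weeks. In MMTV-iFGFR1 mice the MMTV promoter, which is active in mammary epithelium, drives a form of fibroblast growth factor receptor 1 that the drug dimerizer switches on, so the transgene is aimed at the epithelium and not at the sorted cells. Control mice received dimerizer too, and no group went without it. Glands were digested with collagenase, the cells were sorted with an antibody to Cd11b, an integrin that macrophages share with monocytes, neutrophils and other leukocytes, and the RNA was amplified in 2 cycles before hybridization.

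Signals are the deposited MAS5 values on a linear scale, and a difference is a log2 difference of signal plus an offset of 30.8, tested with limma, with 95% intervals and p-values adjusted by Benjamini-Hochberg over all 13041 genes at a threshold of 0.05. With 2 pools a group the precision was limited by the number of arrays. The p-values rest on the spread between pools, taken over all 4 groups and drawn by limma towards the spread of genes of like signal. Median signals per array lay between 96.4 and 127, and log2 values correlated at 0.92 to 0.96 between arrays. A set of 10 macrophage markers, Csf1r, Adgre1 and C1qa among them, was above the filter in full, and its summed signal lay between 254541 and 322620 on all 8 arrays. Control pool 2 at 4 weeks stood apart in RNA quality: its ratio of 3' to 5' signal for beta-actin was 37.0, against 6.84 to 13.9 on the other 7 arrays. The labels of transgenic pool 2 at 4 weeks disagree with each other, since one free-text field calls the mice non-transgenic while the title and the genotype field call them transgenic. It was used as transgenic, and the differences of the 5 genes at 4 weeks are given with and without each of these pools.

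None of the 5 genes passed the adjusted threshold in any comparison, and the widest range over the 8 arrays was that of Rac2, with the highest array at 2.06 times the lowest. The value that stood out most was Cybb at 48 hours, with both transgenic pools below both control pools by 0.55 on the log2 scale. No difference of a member at 4 weeks had an interval that left out 0.

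Cybb encodes gp91phox, also called NOX2, the catalytic subunit that carries the electrons. Its signal at 48 hours was 12289 and 10775 in transgenic pools 1 and 2, against 15255 and 18662 in control pools 1 and 2. At 4 weeks it was 12645 and 14443 in the transgenic pools, against 15443 and 10091 in the control pools. The groups lay apart at 48 hours and overlapped at 4 weeks, where both transgenic pools fell between the control pools. The genotype difference at 48 hours was −0.55 (SE 0.23, interval −1.07 to −0.04), a fold of 0.683, with an unadjusted p of 0.0382 and an adjusted p of 0.976 by limma. Of all 13041 genes, 21.7% had a larger difference in size at that time. Cybb was the 1 member of 5 with an unadjusted p under 0.05 at 48 hours, against 4.07% of all genes, and none of the 5 passed the adjusted test, which 0% of all genes passed. It was also the 1 member whose transgenic pools both lay below both control pools, which 16.1% of all genes did, while no member had both transgenic pools above, against 18.9% of all genes. In the order of group means, control pools at 48 hours came first with 16958 ± 2409, followed by transgenic pools at 4 weeks with 13544 ± 1271, control pools at 4 weeks with 12767 ± 3784 and transgenic pools at 48 hours with 11532 ± 1071 (SD, n = 2 each). Of neighbours in this order, the first and the second did not overlap in their pools, and the others did.

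Cybb was measured by 3 probe sets, which allows the value at 48 hours to be read again within the same arrays. Probe set 1436779_at had 799 and 628 in the transgenic pools, against 1065 and 1010 in the control pools, a difference of −0.53 (SE 0.30). Probe set 1422978_at had 683 and 492 in the transgenic pools, against 745 and 807 in the control pools, a difference of −0.40 (SE 0.32). In all 3 probe sets both transgenic pools lay below both control pools at 48 hours. Neither of these probe sets passed the test either, with an adjusted p of 0.969 by limma for each when all probe sets were tested separately. At 4 weeks the 3 differences were 0.11 for the brightest, −0.14 for 1436779_at and 0.14 for 1422978_at, and without control pool 2 they were −0.19, −0.48 and −0.24. Without transgenic pool 2 they were 0.02, −0.23 and 0.05. The probe sets share the RNA of each pool and are not replicates.

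**Figure D1:**
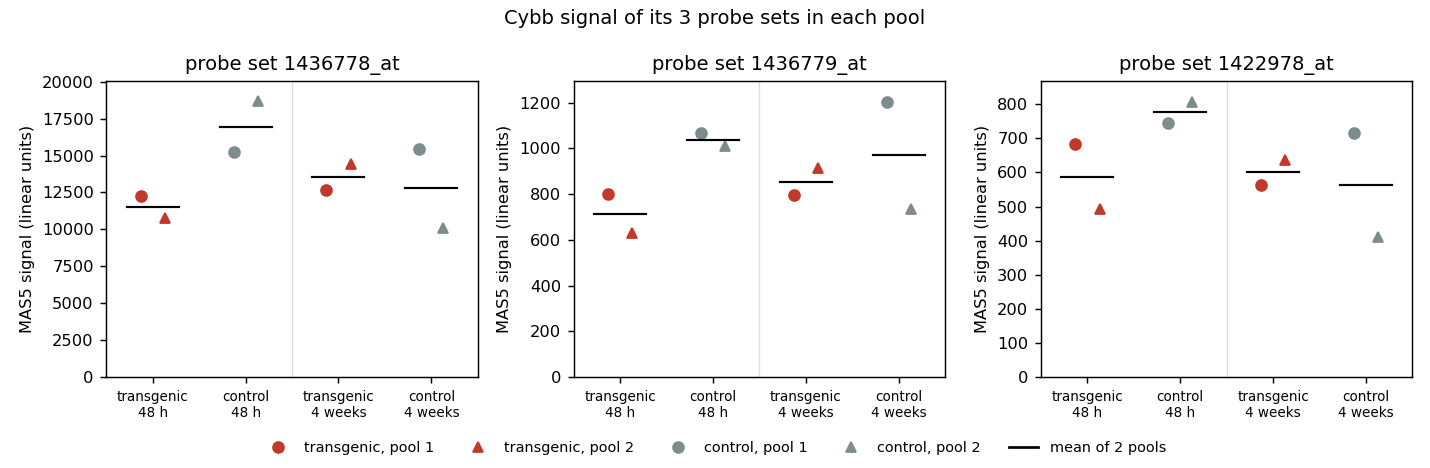
MAS5 signal (linear units, axes from 0) of the 3 Cybb probe sets in each pool, with transgenic pools in red left of control pools in grey, circles for pool 1, triangles for pool 2 and bars for the mean of 2 pools. At 48 hours both transgenic pools lie below both control pools in each panel, and at 4 weeks the groups overlap in each panel.

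Cyba encodes p22phox, the partner that holds gp91phox stable in the membrane. Its signal at 48 hours was 5373 and 4557 in the transgenic pools, against 5579 and 4368 in the control pools. At 4 weeks it was 5828 and 6422 in the transgenic pools, against 5670 and 4136 in the control pools. The pools overlapped at 48 hours, where the difference was 0.00 (SE 0.23, interval −0.52 to 0.52). At 4 weeks both transgenic pools lay above both controls, though transgenic pool 1 was close to control pool 1, and the difference was 0.34 (SE 0.23, interval −0.18 to 0.85). The group means ran from 6125 ± 420 in transgenic pools at 4 weeks through 4965 ± 577 in transgenic pools and 4974 ± 856 in control pools at 48 hours to 4903 ± 1084 in control pools at 4 weeks (SD, n = 2 each), and the last 3 overlapped.

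The 2 membrane subunits thus had different values at 48 hours, with the genotypes apart for Cybb and overlapping for Cyba, and whether the genotype difference itself differed between the genes was not tested. Stretches around the annotated starts of both genes, and of Ncf1, are shown because PU.1, a factor of myeloid cells that recognises the core GAGGAA, is known to bind the promoters of human CYBB and NCF1. The windows run from 170 bases before to 30 bases after the start, 5′ to 3′ on the gene's strand, from RefSeq on build GRCm38.p6, and capitals mark GAGGAA or its reverse complement TTCCTC. Cybb is read from chrX:9469295-9469494 on the minus strand, Cyba from chr8:122432911-122433110 on the minus strand and Ncf1 from chr5:134229596-134229795 on the minus strand. A window was matched for 3 of the 5 genes. The Cybb window lies around an annotated start inside the Cybb locus, chrX:9435252-9487766, and not at its 5′ end. The Cyba and Ncf1 windows lie at the 5′ ends of their loci.
Cybb: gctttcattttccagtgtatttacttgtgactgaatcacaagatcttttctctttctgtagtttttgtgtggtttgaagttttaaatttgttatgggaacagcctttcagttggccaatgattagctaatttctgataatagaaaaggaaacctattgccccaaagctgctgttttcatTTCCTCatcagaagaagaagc
Cyba: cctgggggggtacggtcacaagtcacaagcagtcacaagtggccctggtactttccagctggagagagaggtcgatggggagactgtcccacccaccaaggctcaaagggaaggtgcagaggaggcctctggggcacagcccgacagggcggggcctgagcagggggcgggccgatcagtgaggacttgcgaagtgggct
Ncf1: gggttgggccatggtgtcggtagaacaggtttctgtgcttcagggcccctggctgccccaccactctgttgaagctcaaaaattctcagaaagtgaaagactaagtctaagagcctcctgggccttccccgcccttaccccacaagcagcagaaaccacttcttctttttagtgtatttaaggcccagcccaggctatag
These letters occurred once in the Cybb window, as TTCCTC at bases 10 to 15 counted from the start as base 1, and not in the windows of Cyba or Ncf1. Of 32851 RefSeq windows of this length, 19.2% held them on either strand, so the match describes the sequence and says nothing about binding. Spi1, which encodes PU.1, had 1093 and 853 in the transgenic pools against 1111 and 915 in the control pools at 48 hours, and 1283 and 831 in the transgenic pools against 906 and 918 in the control pools at 4 weeks.

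Ncf1 encodes p47phox, the organizer that is phosphorylated on activation and carries the cytosolic subunits to the membrane. Its signal at 48 hours was 8072 and 4329 in the transgenic pools, against 7694 and 7177 in the control pools. At 4 weeks it was 6455 and 5550 in the transgenic pools, against 6938 and 4844 in the control pools. Both control pools at 48 hours lay between the transgenic pools, which held the highest and the lowest value of the 8 arrays, and at 4 weeks both transgenic pools lay between the controls. The difference was −0.33 (SE 0.30, interval −0.99 to 0.33) at 48 hours and 0.05 (SE 0.30, interval −0.61 to 0.71) at 4 weeks. The value at 48 hours rested on transgenic pool 2, and without it the difference was 0.12. Group means were 7436 ± 366 in control pools at 48 hours, 6201 ± 2647 in transgenic pools at 48 hours, 6003 ± 640 in transgenic pools at 4 weeks and 5891 ± 1480 in control pools at 4 weeks (SD, n = 2 each). The control pools at 48 hours did not overlap with either group at 4 weeks, and the other pairs of groups overlapped.

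Ncf1 had 2 further, dimmer probe sets that did not follow the brightest one. Probe set 1451767_at differed by −0.17 at 48 hours and by −0.17 at 4 weeks. Probe set 1425609_at had 206 and 247 in the transgenic pools against 182 and 143 in the control pools at 48 hours, and 126 and 157 in the transgenic pools against 258 and 201 in the control pools at 4 weeks. Its difference was thus 0.42 at 48 hours and −0.60 at 4 weeks, the opposite sign to the brightest probe set at both times, and none of the values passed the test. Its value at 4 weeks was −0.75 without control pool 2 and −0.72 without transgenic pool 2, and that of 1451767_at was −0.18 and −0.11. Without control pool 2 the brightest probe set turned in sign at 4 weeks, to the side of both others. The direction for Ncf1 therefore depended on the probe set at 48 hours, and at 4 weeks on the probe set and on control pool 2.

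Ncf4 encodes p40phox, which binds a phosphoinositide of the phagosome membrane and helps the complex assemble there. Its signal at 48 hours was 5753 and 4525 in the transgenic pools, against 5324 and 5209 in the control pools. At 4 weeks it was 5509 and 3846 in the transgenic pools, against 5160 and 4685 in the control pools. At both times the 2 control pools lay between the 2 transgenic pools. The difference was −0.05 (SE 0.23, interval −0.57 to 0.48) at 48 hours and −0.09 (SE 0.23, interval −0.62 to 0.43) at 4 weeks. Group means ran from 5266 ± 81.4 in control pools at 48 hours and 5139 ± 868 in transgenic pools at 48 hours to 4922 ± 336 in control pools and 4677 ± 1177 in transgenic pools at 4 weeks (SD, n = 2 each), and each pair of neighbours in this order overlapped. Ncf4 had the narrowest range over the 8 arrays relative to its level, between 3846 and 5753.

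Rac2 encodes the Rac GTPase of blood cells, which in its active form joins the complex and starts the electron flow. Its signal at 48 hours was 2999 and 1783 in the transgenic pools, against 2669 and 1992 in the control pools. At 4 weeks it was 3005 and 2224 in the transgenic pools, against 2217 and 1461 in the control pools. The control pools lay inside the transgenic pools at 48 hours, and at 4 weeks both transgenic pools lay above both controls, with transgenic pool 2 only just above control pool 1. The difference was 0.00 (SE 0.32, interval −0.72 to 0.73) at 48 hours and 0.51 (SE 0.32, interval −0.21 to 1.24) at 4 weeks, a fold of 1.43 with an adjusted p of 0.986 by limma. Group means were 2614 ± 553 in transgenic pools at 4 weeks, 2391 ± 860 in transgenic pools and 2331 ± 479 in control pools at 48 hours and 1839 ± 535 in control pools at 4 weeks (SD, n = 2 each), with overlap between each pair of neighbours. A second Rac2 probe set, 1440208_at, read between 6.90 and 180 and did not pass the filter on low signals.

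**Figure D2:**
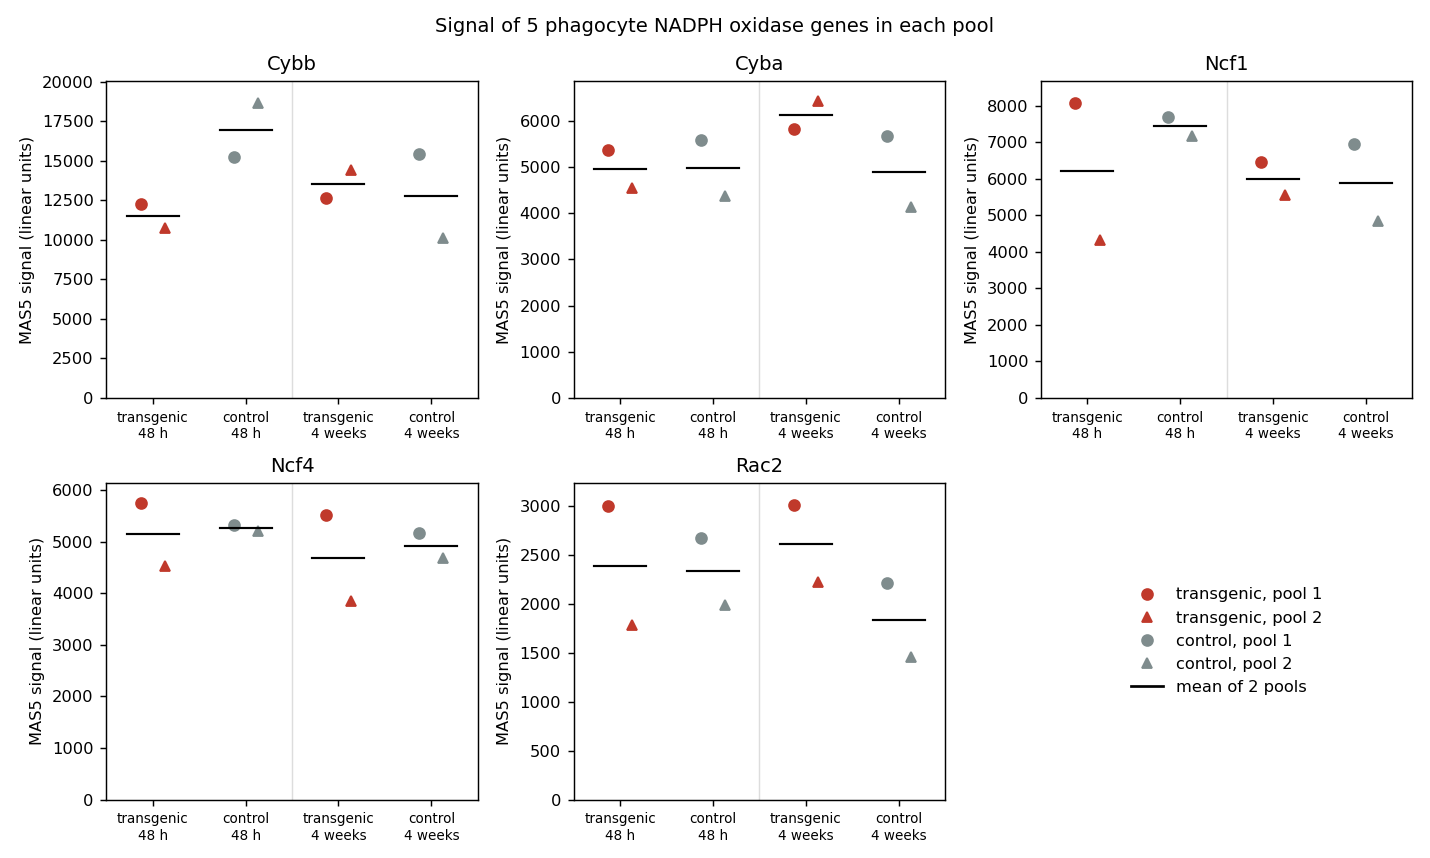
MAS5 signal (linear units, axes from 0) of the 5 genes in each pool, with transgenic pools in red left of control pools in grey at each time, circles for pool 1, triangles for pool 2 and bars for the mean of 2 pools. Cybb at 48 hours and Cyba and Rac2 at 4 weeks are the cases in which the genotypes do not overlap, and pool 1 lies above pool 2 in all 4 groups for Ncf1, Ncf4 and Rac2.

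At 4 weeks 0 of the 5 genes passed the adjusted test by limma, as did 0% of all genes, and 0 had an unadjusted p under 0.05, against 5.08% of all genes. Both transgenic pools lay above both controls for 2 of the 5, Cyba and Rac2, against 14.7% of all genes, and below them for none, against 17.2% of all genes. The median difference of the 5 was 0.11, against −0.02 over all genes, and at 48 hours it was −0.05, against 0.04 over all genes. These values depended on control pool 2, which was the dimmest of the 8 arrays for Cybb, Cyba and Rac2. Without it the differences at 4 weeks were −0.19 for Cybb, 0.11 for Cyba, −0.21 for Ncf1, −0.16 for Ncf4 and 0.22 for Rac2, so that Cybb and Ncf1 turned in sign and Cyba and Rac2 were less than 0.5 as large. Without transgenic pool 2, whose labels disagree, they were 0.02 for Cybb, 0.27 for Cyba, 0.15 for Ncf1, 0.16 for Ncf4 and 0.73 for Rac2, with Ncf4 turned in sign. Summed markers of some other cells also lay above both controls at 4 weeks, the same way as Cyba and Rac2. Neutrophil marker sums lay below both controls. Dendritic cell markers had 6 of 7 genes with a probe set and 6 kept. Their summed signal was 3683 and 5138 in the transgenic pools against 2425 and 2927 in the control pools. Of the 6, 3 differed above 0 and 3 below. Cd209a, the brightest of them at 4 weeks, had 2195 and 2916 in the transgenic pools against 1286 and 1297 in the control pools. T and NK cell markers had 7 of 9 genes with a probe set and 6 kept. Their summed signal was 1695 and 1345 in the transgenic pools against 1014 and 816 in the control pools. Within that list only Cd8a lay apart between genotypes, at 796 and 991 in the transgenic pools against 522 and 297 in the control pools. Eosinophil marker sums also lay above both controls, and the part of these cells in the Cyba and Rac2 values was not tested. The part of the high actin ratio of control pool 2 in these values was not tested beyond a fit with that ratio as a covariate, which gave −0.17 for Cybb and −0.33 for Ncf1 at 4 weeks.

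Whether the genotype difference changed between the times was tested directly, as the difference at 4 weeks minus that at 48 hours. For Cybb it was 0.67 (SE 0.33, interval −0.06 to 1.39), with an unadjusted p of 0.0691 and an adjusted p of 0.988 by limma. It was 0.33 for Cyba, 0.37 for Ncf1, −0.05 for Ncf4 and 0.51 for Rac2. None of the 5 genes had an unadjusted p under 0.05, against 4.74% of all genes, and 0% of all genes passed the adjusted test. Without control pool 2 at 4 weeks the value for Cybb was 0.36, and without transgenic pool 2 at 4 weeks it was 0.57.

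Over both times, with time as a covariate, the genotype difference was −0.22 (SE 0.18) for Cybb, 0.17 for Cyba, −0.14 for Ncf1, −0.07 for Ncf4 and 0.26 for Rac2. Adjusted p-values of the 5 genes lay between 0.957 and 0.979 by limma. None of them had an unadjusted p under 0.05, against 4.59% of all genes, and 0% of all genes passed the adjusted test.

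Time within a genotype was read from the same 8 arrays, so these comparisons share their pools with the genotype comparisons. In transgenic pools the difference of 4 weeks minus 48 hours was 0.23 for Cybb, 0.30 for Cyba, 0.02 for Ncf1, −0.15 for Ncf4 and 0.16 for Rac2. None of the 5 had an unadjusted p under 0.05, against 2.19% of all genes, and 0% of all genes passed the adjusted test. In control pools all 5 were below 0, at −0.43 (SE 0.23) for Cybb, −0.03 for Cyba, −0.36 for Ncf1, −0.10 for Ncf4 and −0.35 for Rac2, and 45.0% of all genes were below 0 there. The median of the 5 was −0.35, against 0.05 over all genes. None of the 5 had an unadjusted p under 0.05, against 6.16% of all genes. The adjusted test was passed by 0.00767% of all genes, a single gene that was not a member, F5, named here after its value was seen. Without control pool 2 at 4 weeks the 5 values were −0.13 for Cybb, 0.20 for Cyba, −0.10 for Ncf1, −0.03 for Ncf4 and −0.06 for Rac2. Without transgenic pool 2 at 4 weeks the values in transgenic pools were 0.14 for Cybb, 0.23 for Cyba, 0.13 for Ncf1, 0.11 for Ncf4 and 0.37 for Rac2.

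**Figure D3:**
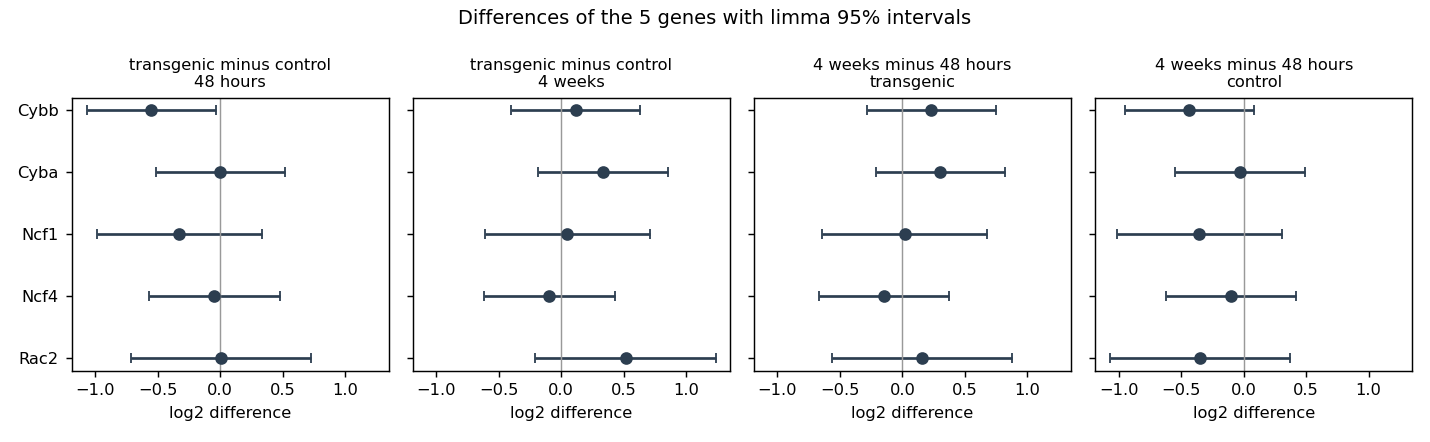
Log2 differences of the 5 genes (points) with limma 95% intervals (bars): the genotype difference, transgenic over control, in a panel for each time, and the time difference, 4 weeks over 48 hours, in a panel for each genotype. The interval leaves out 0 in 1 case, Cybb at 48 hours (−1.07 to −0.04).

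No pair of the 5 genes passed a test of correlation over the 8 arrays. Among the 10 pairs Pearson's r was highest for Ncf1 with Rac2, at 0.74 (exact permutation p = 0.0370, adjusted p = 0.154), where Spearman's rank correlation was 0.60. It was 0.72 for Cyba with Rac2 (exact permutation p = 0.0463, adjusted p = 0.154), where Spearman's was 0.69. Without the 2 arrays farthest from the median of the first gene of each pair, these values were 0.34 and 0.43. Leaving them out also narrows the range of that gene, so how far r rests on those arrays is not settled. For Ncf1 with Ncf4 r was 0.71 (exact permutation p = 0.0430, adjusted p = 0.154), and Spearman's was 0.79 (exact permutation p = 0.0279, adjusted p = 0.231). Without the 2 arrays chosen by Ncf1, r was 0.84. For Ncf4 with Rac2 r was 0.55, and 0.95 without the 2 arrays chosen by Ncf4. The p-values are adjusted over the 10 pairs, and 2 pools a group are too few to give a correlation within a group.

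The cytosolic genes shared a pattern over the pool number that the genotype did not enter. Pool 1 was above pool 2 in 4 of 4 groups for Ncf1, Ncf4 and Rac2, in 3 of 4 for Cyba and in 2 of 4 for Cybb. Of all 13041 genes, 8.73% had pool 1 above pool 2 in 4 of 4 groups and 8.54% had it below in all 4. For Rac2 the gap between pool 1 and pool 2 was 0.74 in transgenic and 0.42 in control pools at 48 hours, and 0.43 in transgenic and 0.59 in control pools at 4 weeks, on the log2 scale. The genotype difference of Rac2 was 0.00 at 48 hours, below both gaps of that time. At 4 weeks it was 0.51, between the gaps of that time. The labels do not say what the pool number stands for.

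The genes whose log2 values followed each member most closely over the 8 arrays were ranked by Pearson's r among 13040 other genes, and the 3 closest are named as a description. They were Tpd52 (0.94), Man1b1 (0.93) and Eml6 (0.92) for Cybb, and Jak1 (0.96), Zfp36 (0.96) and Nova1 (0.95) for Cyba. For Ncf1 they were Cyp2c70 (0.95), 2610311E24Rik (0.93) and Rpp40 (0.93). For Ncf4 they were Maf1 (0.97), Zfp771 (0.96) and Tesk2 (0.95), and for Rac2 they were Ebp (0.97), Abhd10 (0.94) and Dhodh (0.94). No member was among the 3 closest genes of another member.

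Summed markers of some other cells in the sorted pools also lay apart between genotypes at 48 hours, as Cybb did. The summed signal of neutrophil markers, 12 of 15 with a probe set and 11 kept, was 10832 and 11300 in the transgenic pools, against 15883 and 17910 in the control pools at 48 hours, and 9328 and 9296 in the transgenic pools, against 12670 and 24667 in the control pools at 4 weeks. Of the 11 kept, 3 differed above 0 and 8 below at 48 hours, so the sum does not stand for the whole list. At 48 hours the gap between the sums lay largely in S100a8. It had 2779 and 3336 in the transgenic pools against 6377 and 7909 in the control pools. S100a9, a calcium-binding protein abundant in neutrophils, differed by −1.28 at 48 hours and −1.54 at 4 weeks. Ltf (lactotransferrin) differed by 1.19 at 48 hours and −1.35 at 4 weeks, and Lcn2 by 1.49 at 48 hours. None of these passed the adjusted threshold. At 4 weeks S100a9 was at −0.69 without control pool 2 and −1.25 without transgenic pool 2, and Ltf at −1.37 and −1.42. Camp, a defining neutrophil granule gene, read between 5.50 and 89.1 on the 8 arrays and was not kept. The summed signal of 10 luminal epithelial markers, all kept, was 18024 and 19326 in the transgenic pools, against 4853 and 5308 in the control pools at 48 hours, and 17984 and 11601 in the transgenic pools, against 20131 and 10476 in the control pools at 4 weeks. Of the 10, 8 differed above 0 and 2 below at 48 hours, so this sum does not stand for its whole list either. The 2 below were Cldn3, at −1.50, and Cldn4, at −0.81. The sums of both lists lay apart between genotypes at 48 hours, the neutrophil sum lower and the luminal sum higher in transgenic pools. The sums of the macrophage markers overlapped, at 283600 and 254541 in the transgenic pools against 306042 and 261911 in the control pools. Of these 10 markers, 6 differed above 0 and 4 below at 48 hours. In Csf1r and Lyz2 both transgenic pools lay below both control pools, as in Cybb. In Mrc1 both lay above, and in the rest the pools overlapped. Csf1r had 68311 and 76618 in the transgenic pools against 93065 and 80298 in the control pools. Lyz2 had 52593 and 46293 against 68316 and 53406, and Mrc1 had 42840 and 38476 against 33472 and 35557. Eosinophil markers, 5 of 6 with a probe set and 2 kept, also lay apart, with sums of 1207 and 1278 in the transgenic pools against 1529 and 1810 in the control pools at 48 hours. At 4 weeks they lay apart the other way, with 972 and 711 in the transgenic pools against 377 and 675 in the control pools. The sums of the monocyte, dendritic cell, B cell, T and NK cell, myoepithelial, fibroblast and endothelial lists overlapped at 48 hours. The part of these cells in the Cybb value was not tested. In sorted pools, fewer cells of a type and less RNA per cell cannot be told apart.

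Of the other genes of the complex, Rac1, Rap1a and Cybc1 were measured, and 0 of these 3 passed the adjusted test in any comparison. Rac1, the widely expressed Rac that can also serve the oxidase, had 9746 and 8393 in the transgenic pools against 7690 and 7619 in the control pools at 48 hours, and 9915 and 11731 in the transgenic pools against 9340 and 6576 in the control pools at 4 weeks. Both transgenic pools of Rac1 lay above both controls at each time, and the difference over both times was 0.35 (SE 0.15), with an unadjusted p of 0.0400 and an adjusted p of 0.957 by limma. Rap1a, a small GTPase found with the flavocytochrome, differed by 0.28 at 48 hours and −0.09 at 4 weeks. Cybc1, a chaperone needed for the gp91phox and p22phox pair, differed by 0.20 at 48 hours and −0.08 at 4 weeks. With all pools these signs were opposite to those of the brightest Cybb probe set. Cybb probe set 1436779_at was below 0 at 4 weeks, as Cybc1 was. Without control pool 2 all 3 Cybb probe sets were below 0 at 4 weeks, and so was Cybc1. Without control pool 2 the values at 4 weeks were 0.21 for Rac1, −0.19 for Rap1a and −0.18 for Cybc1, and without transgenic pool 2 they were 0.34, −0.02 and −0.15.

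Of 9 listed genes for other NOX and DUOX enzymes and their partner proteins, 5 had a probe set and 4 were kept. These 4 were dim, with signals of at most 355 on any array. Duox1 differed by 0.60 at 48 hours and 1.08 at 4 weeks and Nox4 by −0.66 and 0.10, none past the test. At 4 weeks Duox1 was at 1.09 without control pool 2 and 1.43 without transgenic pool 2, and Nox4 at −0.38 and 0.38.

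Genes that signal to the oxidase gave 18 measured members of 22 listed. At 48 hours 3 were above 0 and 15 below, with a median of −0.13 against 0.04 over all genes, and at 4 weeks 11 were above and 7 below, with a median of 0.12 against −0.02. Of all genes, 54.0% were above 0 at 48 hours and 48.0% at 4 weeks. None of the 18 passed the adjusted test at either time or had an unadjusted p under 0.05 in the genotype comparison at either time. Hvcn1, the proton channel that balances the charge the oxidase moves, had 512 and 480 in the transgenic pools against 841 and 694 in the control pools at 48 hours. Its difference there was −0.59 (SE 0.28), the same sign and nearly the same size as that of Cybb. Pik3cd, a lipid kinase subunit, differed by −0.62 at 48 hours and −0.22 at 4 weeks, and Fgr, a Src family kinase, by −0.41 and 0.50. At 48 hours Pik3cd had 63984 and 59142 in the transgenic pools against 132565 and 67774 in the control pools, so control pool 1 stood far above the rest. Its range of 36366 to 132565 took in that of Csf1r, 68311 to 93065. Whether this bright probe set reads Pik3cd alone was not tested. At 4 weeks Pik3cd was at −0.01 without control pool 2 and 0.23 without transgenic pool 2, and Fgr at 0.92 and 0.36.

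Of 7 transcription factors measured of 9 listed, 1 was above 0 and 6 were below at 48 hours, with a median of −0.06, and at 4 weeks 5 were above and 2 below, with a median of 0.17. None of the 7 passed the adjusted test at either time. Runx1, a factor of blood cell development, had 1760 and 2297 in the transgenic pools against 3780 and 2737 in the control pools at 48 hours, a difference of −0.67 (SE 0.25) with an unadjusted p of 0.0235 and an adjusted p of 0.976 by limma. Spi1 and Irf8, which encode partners at myeloid promoters, differed by −0.06 and −0.11 at 48 hours.

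Of 15 listed genes that remove superoxide and peroxide, 12 had a probe set and 11 were kept. Of the 11, 6 were above 0 at 48 hours and 7 at 4 weeks, with medians of 0.02 and 0.14. Sod2, the mitochondrial superoxide dismutase, differed by −0.15 at 48 hours and 0.27 at 4 weeks, and Gpx3, a secreted glutathione peroxidase, by 0.34 and −0.91. All 9 listed NRF2 pathway genes were measured, with Txnrd1, a thioredoxin reductase, at 0.94 at 4 weeks (unadjusted p = 0.0119, adjusted p = 0.964 by limma) and Gclc, of glutathione synthesis, at −0.88 at 48 hours. Of 6 measured genes of NADPH supply, 3 were above 0 at each time, and Tkt, the transketolase of the pentose phosphate pathway, differed by 0.19 at 48 hours and 0.37 at 4 weeks. Of 3 genes for other oxidant-producing enzymes 1 was kept, Mpo, at 0.03 at 48 hours and −0.03 at 4 weeks, and Nos2, the inducible nitric oxide synthase, read at most 19.7 on any array. At 4 weeks Txnrd1 was at 0.63 without control pool 2 and 0.68 without transgenic pool 2, Gpx3 at −1.18 and −0.35, Sod2 at 0.25 and 0.08, Tkt at 0.72 and 0.43 and Mpo at 0.72 and 0.10. In none of these lists did a gene pass the adjusted test in a genotype comparison.

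**Figure D4:**
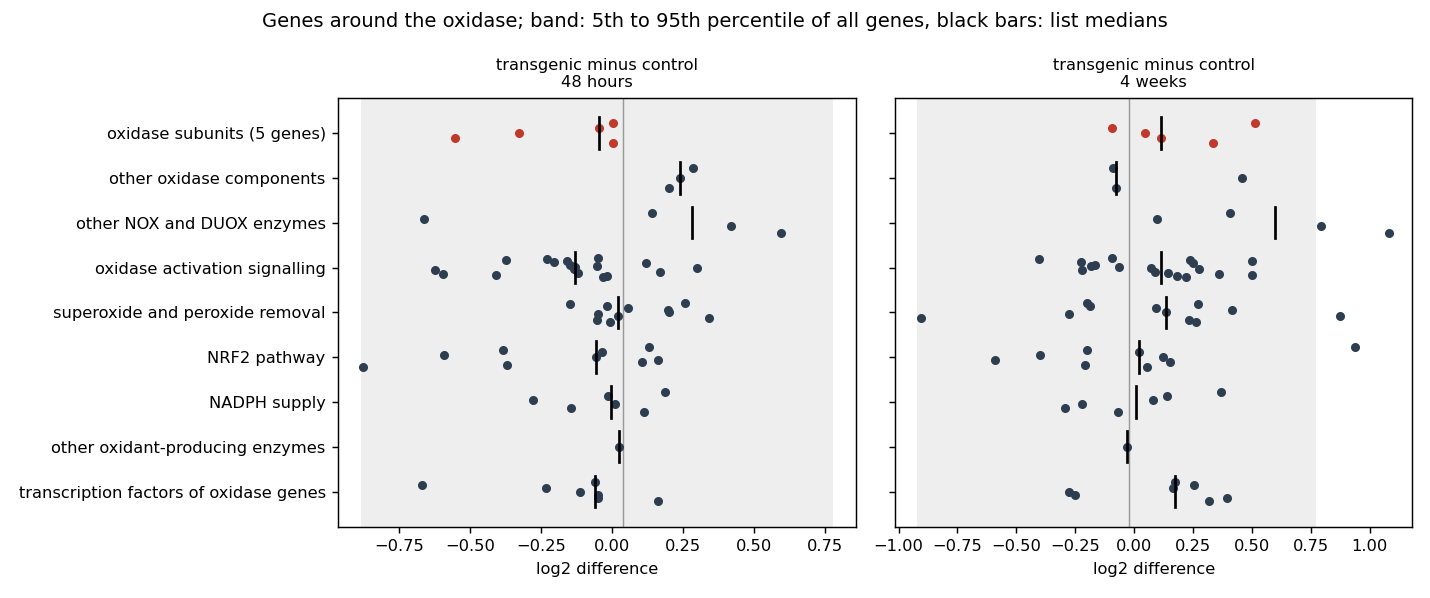
Log2 genotype differences, transgenic over control, of the 5 oxidase subunits (red) and of related gene lists (dark) at 48 hours and at 4 weeks; black bars are list medians, the grey line is the median of all genes and the band their 5th to 95th percentile. The subunits lie inside the band at both times, with Cybb lowest at 48 hours (−0.55) and Rac2 highest at 4 weeks (0.51).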

How the data were processed

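RNA from Cd11b-sorted mammary cells, 3 mice to a pool, was hybridized to 8 arrays of the mouse 430 2.0 type. The authors deposited a table of MAS5 signal intensity values, per the labels, on a linear scale; from the values, each array's trimmed mean is 500, trimming 2% at each end, and no detection calls were used here. Of 45101 probe sets, 34945 carried 1 gene symbol in the platform annotation, 932 several and 9160 none (64 were array controls). The brightest probe set by mean signal stood for each gene, and genes above the array median on at least 2 arrays were kept. log2(signal + 30.8), the offset being the 25th percentile of the deposited signals, was fitted with limma 3.58.1 (R 4.3.3), all 8 arrays in 1 fit with a mean-variance trend, two-sided; the script was tested on simulated data. Such an offset understates changes of dim genes. Gene rule: all 5 members, the 3 closest patterns each and any gene of the oxidase component and NOX lists. Up to 4 genes of each other list were named by smallest p. Spi1, which encodes PU.1, and some cell type markers were named outside this rule. The members and lists were chosen with earlier results of these data known. Some items are not reported here. Promoter windows came from RefSeq tables. Alternatives were quantile normalization, other offsets and filters, the mean of a gene's probe sets, no trend, fewer arrays, the pool number as a replicate block, the actin ratio as a covariate and leaving out each pool; testing all probe sets separately was added after seeing the data. The labels do not say whether pools were sorted on separate days, so p-values may reflect technical spread.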

Additional observations from a re-analysis of the deposited data

Results flagged for a closer look

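The kept genes among the 5 members and the related lists were screened for a turn between the times, with the cell type markers left out. Of these, 3 had both transgenic pools below both control pools at 48 hours and above them at 4 weeks. This pattern was shown by 2.29% of all 13041 genes, while 3.21% showed its reverse. For Hvcn1 the genotype difference at 4 weeks was above that at 48 hours by 0.95 on the log2 scale, with 750 and 694 in the transgenic pools against 470 and 655 in the control pools at 4 weeks (unadjusted p = 0.0362, adjusted p = 0.988 by limma). For Runx1 it was 0.92, with 1689 and 1767 in the transgenic pools against 1508 and 1381 in the control pools at 4 weeks (unadjusted p = 0.0263, adjusted p = 0.988 by limma). For Sod2 it was 0.42, with 5788 and 6161 in the transgenic pools against 6883 and 6365 in the control pools at 48 hours, and 6202 and 8147 in the transgenic pools against 5956 and 5808 in the control pools at 4 weeks (unadjusted p = 0.176 by limma). Without control pool 2 at 4 weeks the 3 values were 1.18 for Hvcn1, 0.86 for Runx1 and 0.40 for Sod2, and without transgenic pool 2 at 4 weeks they were 1.01, 0.89 and 0.22. None of the 5 oxidase subunits had this pattern. The 3 genes were picked by it, so the p-values given here describe them and are no separate support.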

How the results depend on the processing

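Of 560 values of the 5 genes under the alternatives, 518 kept their direction, 42 turned and none became a call, with 0.655 as the lowest adjusted p by limma. Cybb at 48 hours stayed below 0 throughout, from −0.70 to −0.41 with a pool left out, −0.68 with the actin ratio as a covariate and −0.55 with the replicate block. Quantile normalization turned Cyba at 48 hours to −0.045, Rac2 to −0.060 and the change of the genotype difference of Ncf4 to 0.0047. The actin ratio as a covariate gave −0.11 for Cyba and −0.18 for Rac2 at 48 hours, −0.17 for Cybb and −0.33 for Ncf1 at 4 weeks, −0.037 for Cyba and −0.055 for Rac2 over both times, −0.037 for Ncf1 with time in transgenic pools and 0.078 for Cyba with time in control pools. The mean of all probe sets gave −0.24 for Ncf1 and −0.17 for Rac2 at 4 weeks, −0.21 for Ncf1 and −0.18 for Rac2 in the change of the genotype difference, −0.083 for Rac2 over both times, −0.22 for Ncf1 with time in transgenic pools and 0.19 for Rac2 with time in control pools; the second Rac2 probe set, which enters this mean, is below the filter. The causes of the other turns were not tested.

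With 1 pool left out, the lone pool being assumed to vary like the other groups, ranges that crossed 0 were, at 48 hours, −0.17 to 0.18 for Cyba, −0.78 to 0.12 for Ncf1, −0.22 to 0.13 for Ncf4 and −0.37 to 0.37 for Rac2, and at 4 weeks −0.19 to 0.42 for Cybb, −0.21 to 0.30 for Ncf1 and −0.35 to 0.16 for Ncf4. They were −0.073 to 0.82 for Ncf1 and −0.31 to 0.21 for Ncf4 in the change of the genotype difference, −0.28 to 0.075 for Ncf1 and −0.17 to 0.038 for Ncf4 over both times, −0.43 to 0.46 for Ncf1, −0.41 to 0.11 for Ncf4 and −0.21 to 0.53 for Rac2 with time in transgenic pools, and −0.25 to 0.20 for Cyba with time in control pools.

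Counts of all genes past the adjusted threshold of limma, 1 for time in control pools and 0 elsewhere, were 1 at 48 hours and 1 at 4 weeks with only the arrays compared, and 2 at 4 weeks with the pool number as a replicate block. For time in control pools the count was 4 with the replicate block, 7 with the actin ratio, and 0 with the stricter filter, the mean of probe sets, no trend or only the arrays compared. With 1 pool left out it ran from 0 to 7 there and from 0 to 1 in each other comparison. Deviations of pools with the same number correlated at −0.09 to 0.13 over all genes, which does not settle what the number stands for, so it was not used to pair pools; the block changed no call of the 5 genes. Detection calls were not used, so signals near the array median have no test of being above background.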
